A study of Homo sapiens with 42 samples.

Results

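The 9 genes followed here encode transcription factors of myeloid differentiation, given for all groups of the study: SPI1, CEBPA, CEBPB, CEBPD, CEBPE, IRF8, GFI1, KLF4 and EGR2. They were chosen by symbol in GENCODE, and each matched 1 identifier, so they are 9 of the 58721 genes listed in each of the 4 deposited count tables. The study tests MS41, a small-molecule degrader of ENL. ENL, the product of MLLT1, reads acylated histones and is needed by leukaemias that carry MLL fusions.

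RNA-seq counts were available for 42 libraries in 15 groups of 2 human leukaemia lines, MV4;11, a monocytic line, and SEMK2, a B-cell precursor line, both with an MLL-AF4 fusion. MV4;11 cells received MS41, MS41N, PFI-6 or DMSO, the compounds at 100 nM, for 6 or 24 h, with 3 libraries in each of these 8 groups. PFI-6 is an inhibitor of the histone-binding YEATS domains of ENL and AF9. The labels do not state the role of MS41N, which the treatment protocol spells MS47N. MV4;11 cells carrying ENL guide 1, ENL guide 2 or a control guide gave 2 libraries per guide, and nothing in the labels says whether they were pools or clones. SEMK2 cells received MS41 or DMSO, with 3 libraries each and no time in the sample labels. MV4;11 cells from mice given MS41 or vehicle gave 3 libraries each, with no dose, time or mouse strain in the labels and with a low-input kit in place of the standard one. Apart from the ENL guides, the labels call every group wild type. Whether replicates came from different cultures or mice is not stated, and the p-values therefore reflect only variation among these samples, possibly technical.

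SPI1 encodes PU.1, an ETS factor that opens enhancers of monocytes, macrophages and B cells and is needed for both lineages. The C/EBP proteins are bZIP factors: C/EBP-alpha drives the step to granulocyte and monocyte progenitors, C/EBP-beta and C/EBP-delta act in maturing and activated cells, and C/EBP-epsilon switches on genes of the late neutrophil granules. IRF8 pairs with PU.1 on composite sites and directs cells to monocytes and dendritic cells, and many acute myeloid leukaemias need it for growth. GFI1 is a repressor that recruits the demethylase LSD1 and favours neutrophils over monocytes, in part by holding back EGR2 and other monocyte genes. KLF4 and EGR2 are zinc-finger factors that act late, in monocytes and macrophages.

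All positions are on GRCh38. SPI1 (ENSG00000066336) lies on chromosome 11 at 47354860 to 47378576, IRF8 (ENSG00000140968) on chromosome 16 at 85898803 to 85922609, and GFI1 (ENSG00000162676) on chromosome 1 at 92474762 to 92486876. CEBPA (ENSG00000245848) lies on chromosome 19 at 33299934 to 33302564, CEBPB (ENSG00000172216) on chromosome 20 at 50190734 to 50192689 and CEBPE (ENSG00000092067) on chromosome 14 at 23117304 to 23119616. KLF4 (ENSG00000136826) lies on chromosome 9 at 107484852 to 107490482 and EGR2 (ENSG00000122877) on chromosome 10 at 62811996 to 62919900. The exons of CEBPA share 659 bases with the antisense gene AC008738.3 and 482 bases with AC008738.5, and those of CEBPB share 231 bases with CEBPB-AS1. The strand setting of the counting is not stated, so reads of these pairs cannot be told apart. The transcripts of SPI1 and of the 4 C/EBP genes are rich in G and C, at the 95.1 to 99.3 percentile of all genes, against 65.6 to 81.7 for IRF8, GFI1, KLF4 and EGR2. This property is given because some values below moved when a trend with GC content was removed.

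Of the 9 genes, 7 matched the RefSeq promoter sequences (GRCh38.p14), with 13 start sites in all. The 3 sequences printed are those of the repressor gene GFI1 and of the late monocyte factors KLF4 and EGR2, because GFI1 fell and the other genes rose with MS41 at 24 h. Each is the 200 bases before 1 RefSeq start on the minus strand, at chr1:92486926-92487125 for GFI1, chr9:107489770-107489969 for KLF4 and chr10:62816367-62816566 for EGR2. Capitals mark matches, on either strand, to the PU.1 core GAGGAA, the C/EBP pattern TTNNGNAA, the EGR pattern GCGNGGGCG, the CACCC-type pattern CCNCACCC, the GFI1 core AAATCA or the CArG box.
GFI1: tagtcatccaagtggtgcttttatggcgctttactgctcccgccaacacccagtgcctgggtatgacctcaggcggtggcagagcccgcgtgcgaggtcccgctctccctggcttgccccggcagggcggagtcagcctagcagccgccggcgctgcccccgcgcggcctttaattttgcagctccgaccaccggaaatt
KLF4: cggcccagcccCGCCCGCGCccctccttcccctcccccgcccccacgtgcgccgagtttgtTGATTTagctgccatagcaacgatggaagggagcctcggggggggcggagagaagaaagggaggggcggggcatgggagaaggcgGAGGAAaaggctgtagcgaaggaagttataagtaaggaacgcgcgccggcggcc
EGR2: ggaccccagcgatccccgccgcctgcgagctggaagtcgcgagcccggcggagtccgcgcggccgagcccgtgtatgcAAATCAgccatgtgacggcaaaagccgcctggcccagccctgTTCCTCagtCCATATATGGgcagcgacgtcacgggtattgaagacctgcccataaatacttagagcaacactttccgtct

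KLF4 held 1 match each to the EGR pattern, the GFI1 core and the PU.1 core, counted from -189, -139 and -54 relative to the start. EGR2 held 1 match each to the GFI1 core, from -122, the PU.1 core, from -80, and the CArG box, from -71. The GFI1 window held 0 matches to any of the 6 patterns. Among all 35116 RefSeq promoter windows of this length the PU.1 core was found in 19.3%, the C/EBP pattern in 26.8%, the EGR pattern in 7.56%, the CACCC-type pattern in 14.2%, the GFI1 core in 9.07% and the CArG box in 0.982%. A match is a run of letters, and no binding was measured.

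Values are given as CPM, counts scaled to the TMM-adjusted library size, or as log2 fold changes with a 95% interval from edgeR's quasi-likelihood test. P-values were adjusted by the Benjamini-Hochberg method across the tested genes of a table, and a gene is called below 0.05. Libraries held 102.3 to 156.5 M counts in the MV4;11 compound table, 77.22 to 87.81 with the guides, 155.9 to 230.6 in SEMK2 and 99.49 to 126.7 from mice. MLLT1 averaged 186 CPM with ENL guide 1 and 125 with ENL guide 2, against 236 with the control guide. Of 12 myeloid markers, 11 averaged at least 1 CPM in every MV4;11 group. CD14 was the exception. Of 10 B lineage markers, 7 or 8 reached that level in SEMK2, with PAX5 at 1001 CPM. Of the myeloid markers 5 did so there, and FLT3 supplied 1914 CPM. SEMK2 DMSO replicate 1 stood apart from the other 5 SEMK2 libraries in several myeloid genes, a fact noticed after the values were seen. It held 14.1 CPM of CYBB against 0.00612 and 0.0391 in the other DMSO libraries, and 0.725 CPM of CHI3L1 against 0 in all 5 others.

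In control cells the 9 genes spanned a range of levels that put IRF8 at the top and CEBPE and EGR2 at the bottom. Per kilobase of exon, at 24 h of DMSO in MV4;11, IRF8 stood at 180 CPM, GFI1 at 56.5, SPI1 at 45.2 and CEBPA at 25.3. CEBPD followed at 6.77, CEBPB at 5.31 and KLF4 at 1.92, and EGR2 at 0.227 and CEBPE at 0.174 did not differ beyond their spread. The order was not the same in every control group. With the control guide SPI1, at 135 CPM per kb, stood beside IRF8 at 126, and their spreads overlapped. In MV4;11 cells from mice given vehicle, SPI1 (109) and IRF8 (83.6) led, and KLF4 stood at 25.6 CPM per kb, above CEBPB (16.5) and CEBPD (10.3). In SEMK2 with DMSO, IRF8 (43.6) stood above CEBPA (27.8) and SPI1 (25.9), whose spreads overlapped, while KLF4 was at 0.264, CEBPE at 0.184 and CEBPD at 0.0501. The tables were scaled separately and differ in kit and handling, so levels set across them are a description.

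**Figure D1:**
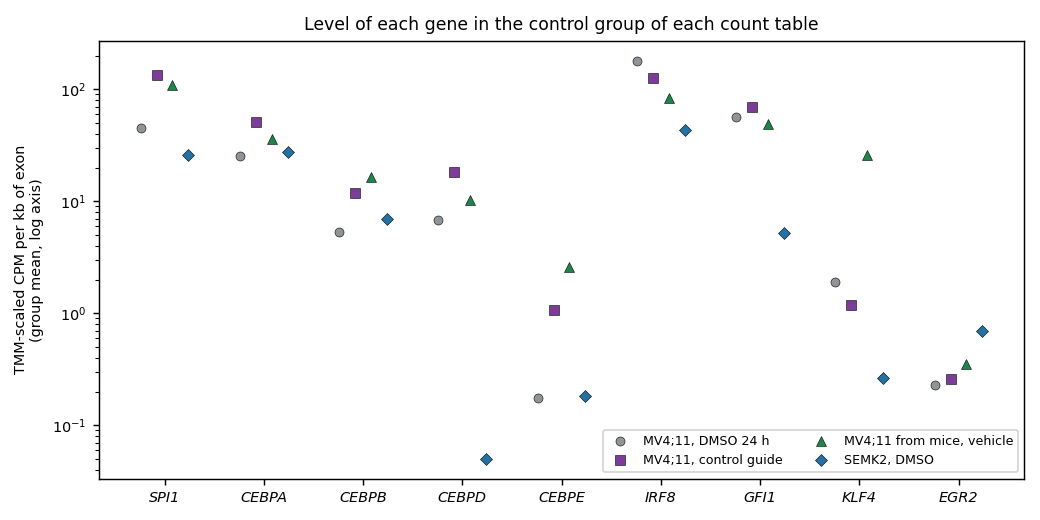
Mean level of each gene in the control group of each count table, as TMM-scaled CPM per kb of exon on a log axis. KLF4 sits at 25.6 in vehicle-treated mice and at 1.92 with DMSO at 24 h, and CEBPD sits at 0.0501 in SEMK2.

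The first comparison asks how the factors responded to 6 h of MS41 in MV4;11. Of the 9 genes 4 fell and 0 rose: IRF8, GFI1, CEBPD and CEBPA. Over all genes tested 26% were called, 13.8% lower. The median log2 change of the 9 was -0.17, against 0.02 over all genes. In bulk RNA, fewer cells of a type and less RNA per cell cannot be told apart.

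IRF8 had the largest fall of the 9. It was at 443.5, 434 and 436 CPM in the MS41 libraries at 6 h, against 709, 719 and 721 CPM in the DMSO libraries. Every MS41 library lay below every DMSO library, with a log2 change of -0.71 (95% interval -0.75 to -0.67, adjusted p = 2.95e-28). At 24 h the MS41 libraries held 578, 592 and 558.5 CPM and the DMSO libraries 752, 762 and 752 CPM. The groups were again apart, with a change of -0.39 (-0.43 to -0.35, adjusted p = 7.69e-20). The difference from DMSO was thus smaller at the later time, by 0.32 (0.26 to 0.38, adjusted p = 1.69e-11).

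GFI1, the repressor, fell alongside it. MS41 libraries at 6 h held 112, 119.8 and 113 CPM, against 167, 164 and 169 CPM with DMSO. The groups did not overlap, and the change was -0.54 (-0.59 to -0.48, adjusted p = 1.64e-20). After 24 h the values were 128, 132 and 126 CPM with MS41 and 171, 175 and 173 CPM with DMSO, a change of -0.43 (-0.48 to -0.38, adjusted p = 3.97e-18). The difference between the times, 0.11 (0.03 to 0.19), was small and passed the test (adjusted p = 0.0308), but the call was lost, at 0.09 to 0.10, without DMSO replicate 3, MS41 replicate 1 or MS41 replicate 3 of 6 h, or DMSO replicate 1 or MS41 replicate 2 of 24 h.

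SPI1 moved little. At 6 h it was at 95.3, 88.8 and 86.9 CPM with MS41 and at 99.5, 93.6 and 96.2 CPM with DMSO. These groups overlapped and the gene was not called in the main fit (-0.10, -0.18 to -0.01, adjusted p = 0.0966). It was called lower without the filter on low counts (-0.11, adjusted p = 0.00573) and with only the compared groups (adjusted p = 0.0362). The same held without MS41 replicate 1 (-0.14, adjusted p = 0.0166). At 24 h MS41 libraries held 102, 109 and 103 CPM, against 89.9, 91.3 and 99.2 CPM with DMSO. All 3 lay above DMSO, and SPI1 rose by 0.16 (0.08 to 0.25, adjusted p = 0.00139).

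**Figure D2:**
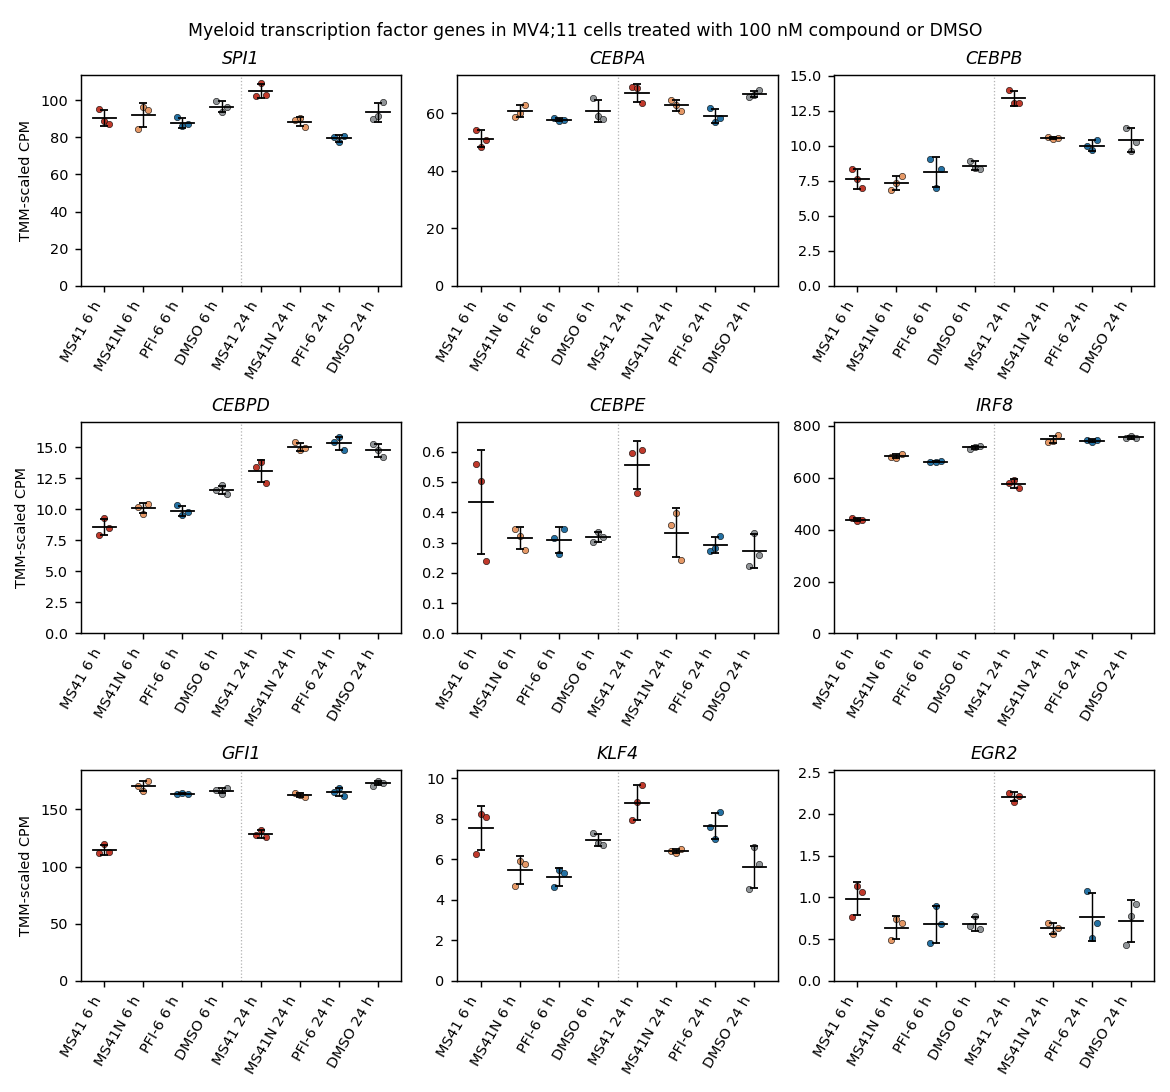
TMM-scaled CPM of the 9 genes in the 24 MV4;11 compound libraries; points are libraries, bars the group mean with SD (n = 3), and a dotted line parts 6 h from 24 h. IRF8 and GFI1 are lowest with MS41 at 6 h, and EGR2 is highest with MS41 at 24 h.

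Among the C/EBP genes, CEBPA and CEBPD fell at 6 h and CEBPB and CEBPE rose at 24 h. CEBPA was at 54.2, 48.3 and 50.7 CPM with MS41 at 6 h, against 65.2, 59.1 and 57.8 CPM with DMSO, and all 3 MS41 libraries were lower (-0.25, -0.33 to -0.17, adjusted p = 4.58e-06). At 24 h CEBPA was at 68.9, 68.6 and 63.3 CPM with MS41 and at 65.6, 66.4 and 67.8 CPM with DMSO, groups that overlapped (0.01, -0.08 to 0.09, adjusted p = 0.916). With the GC trend removed the 24 h value was 0.23 (adjusted p = 1.99e-07).

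CEBPD was at 7.97, 9.28 and 8.50 CPM with MS41 at 6 h, against 11.5, 11.9 and 11.3 CPM with DMSO, all lower (-0.43, -0.56 to -0.31, adjusted p = 2.84e-07). At 24 h it was at 13.4, 13.8 and 12.1 CPM with MS41 and at 15.3, 14.8 and 14.2 CPM with DMSO. The groups did not overlap and the change was -0.17 (-0.29 to -0.05, adjusted p = 0.0182). The sign of the 24 h value depends on the processing: with the GC trend removed it was 0.17 (adjusted p = 0.0327). The call was also lost without DMSO replicate 1 (-0.14, adjusted p = 0.0889) or MS41 replicate 3 (-0.12, adjusted p = 0.161).

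CEBPB, whose product acts in maturing and activated monocytes, was not called at 6 h (-0.17, adjusted p = 0.12), with 8.36, 7.63 and 6.95 CPM with MS41 and 8.92, 8.42 and 8.35 CPM with DMSO. Without MS41 replicate 1 of 6 h it was called lower (-0.24, adjusted p = 0.0362). By 24 h it was at 14.0, 13.1 and 13.1 CPM with MS41, against 11.3, 9.60 and 10.2 CPM with DMSO. It rose by 0.37 (0.22 to 0.52, adjusted p = 6.07e-05), with no overlap. CEBPE rose by 1.03 at 24 h (0.42 to 1.64, adjusted p = 0.00436) at very low levels, 78, 63 and 73 reads with MS41 against 26, 40 and 36 reads with DMSO. Its 6 h value of 0.43 (-0.18 to 1.04), from 64, 53 and 36 reads with MS41 and 44, 46 and 43 reads with DMSO, was not called (adjusted p = 0.338).

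KLF4 and EGR2, the late monocyte factors, rose at 24 h and were not called at 6 h. KLF4 was at 7.94, 8.82 and 9.66 CPM with MS41 at 24 h, against 4.52, 6.60 and 5.77 CPM with DMSO. All MS41 libraries were higher (0.64, 0.42 to 0.86, adjusted p = 4.36e-06). At 6 h it was at 6.28, 8.22 and 8.10 CPM with MS41 and 7.29, 6.83 and 6.71 CPM with DMSO, with overlap (0.12, adjusted p = 0.489).

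EGR2 had the largest fold of the 9, at a low level. It was at 2.25, 2.15 and 2.21 CPM with MS41 at 24 h, against 0.435, 0.780 and 0.923 CPM with DMSO. The groups were far apart, with a change of 1.62 (1.14 to 2.103, adjusted p = 1.71e-07), a 3.07-fold level. At 6 h the values were 0.760, 1.13 and 1.07 CPM with MS41 and 0.656, 0.777 and 0.617 CPM with DMSO, which overlapped (0.53, 0.04 to 1.03, adjusted p = 0.115).

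At 24 h 8 of the 9 genes were thus called, 5 higher and 3 lower, where 44.3% of all genes were called, 21.4% higher and 22.9% lower. The median change of the 9 was 0.16, against 0.02 over all genes. Between 6 and 24 h the MS41 effect moved upward for 8 of the 9, with 26.4% of all genes called in that test and 11.9% higher. These are the smaller falls of IRF8, GFI1 and CEBPD, and the shifts of SPI1 (0.26, adjusted p = 0.000828), CEBPA (0.26, adjusted p = 0.000504), CEBPB (0.53, adjusted p = 0.00012), KLF4 (0.53, adjusted p = 0.00772) and EGR2 (1.09, adjusted p = 0.0131). The value for CEBPD was 0.26 (adjusted p = 0.0178). CEBPE was at 0.60 (-0.26 to 1.46) and was not called. The call was lost without 1 library for EGR2 (DMSO replicate 1 at 24 h, 0.84, adjusted p = 0.0684) and, for CEBPD, at 0.21 to 0.24, without DMSO replicate 2 or MS41 replicate 1 of 6 h, or DMSO replicate 3 or MS41 replicate 2 of 24 h.

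Marker sums also differed between MS41 and DMSO. At 6 h the summed B lineage markers were at 4.78 to 5.02 CPM with MS41 and 2.62 to 3.44 CPM with DMSO, with 1 of 10 at 0 in both. The erythroid and megakaryocyte markers were at 4.19 to 5.41 CPM with MS41 and 3.46 to 3.80 CPM with DMSO, with 4 of 8 at 0 in both. The summed myeloid markers were lower at 6 h, at 1244 to 1265 CPM with MS41 and 1429 to 1441 CPM with DMSO. Yet 5 of these 12 genes were called higher and 3 lower, with a median log2 change of 0.04, against 0.02 over all genes. Of all genes 12.2% were called higher and 13.8% lower. The sums of the T and NK and of the stromal and endothelial markers overlapped. At 24 h all 5 sums were higher with MS41. The B lineage markers were at 5.07 to 6.06 CPM with MS41 and 2.63 to 3.09 CPM with DMSO, with 2 and 3 of 10 at 0. The T and NK markers were at 13.5 to 14.5 CPM with MS41 and 6.11 to 7.18 CPM with DMSO, with 1 and 4 of 8 at 0. Of the T and NK markers only 1, NKG7, averaged at least 1 CPM in either group. The erythroid and megakaryocyte markers were at 3.23 to 3.47 CPM with MS41 and 2.11 to 2.42 CPM with DMSO, with 3 of 8 at 0 in both, and the stromal and endothelial markers at 0.658 to 0.845 and 0.162 to 0.357 CPM, with 4 of 8 at 0 in both. The summed myeloid markers were at 3600 to 3809 CPM with MS41 and 2433 to 2502 CPM with DMSO, with 0 of 12 at 0 in both. Of these 12, LYZ alone ran from 491 to 2733 CPM over the compound libraries and weighs most in the sums. At 24 h 10 of the 12 were called higher and 1 lower, against 21.4% and 22.9% of all genes. The part of all these markers in the results above was not tested.

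**Figure D3:**
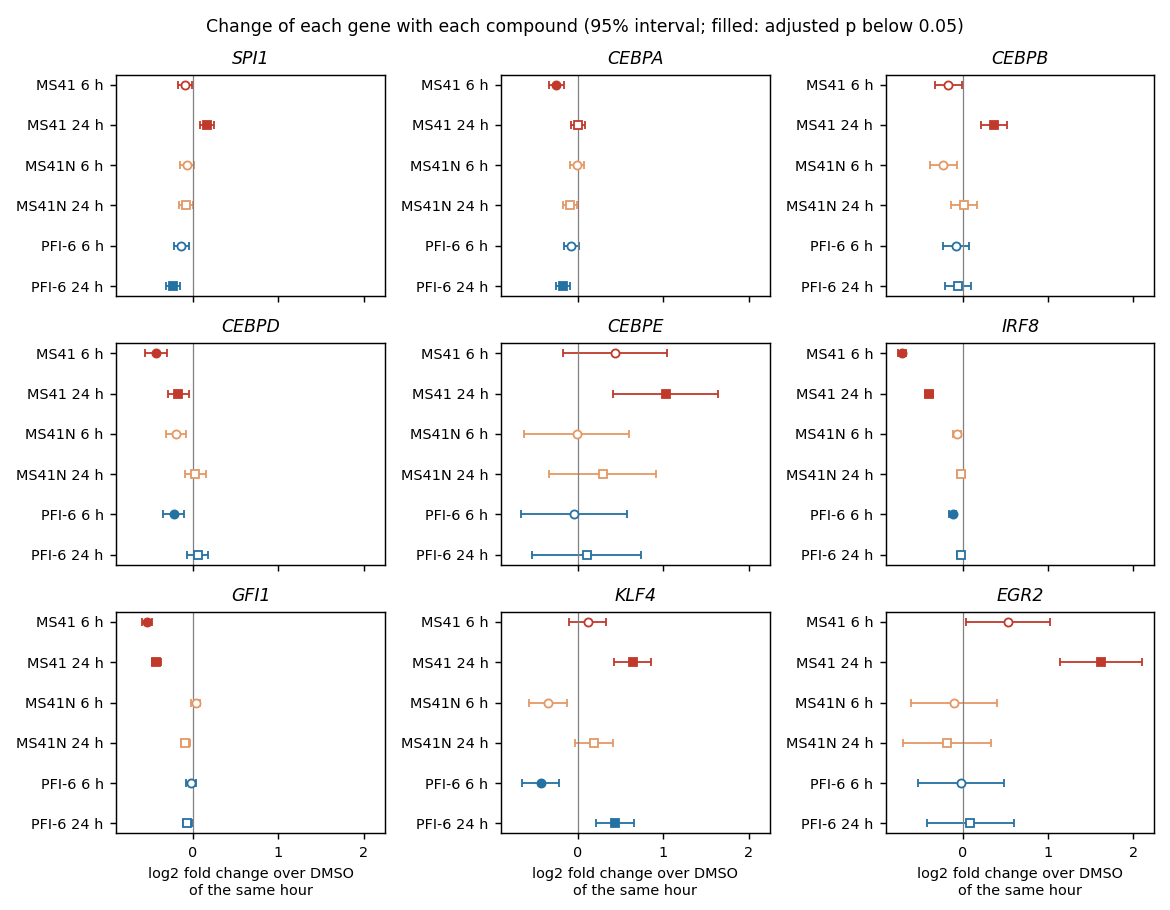
Log2 fold change of each gene over DMSO of the same hour for MS41, MS41N and PFI-6, with 95% intervals; filled symbols are called. The MS41 interval of IRF8 runs from -0.75 to -0.67 at 6 h, and that of EGR2 from 1.14 to 2.103 at 24 h.

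In the main fit MS41N gave no called change in any of the 9 genes, at 6 h, where 0.321% of all genes were called, or at 24 h, with 0.0352%. edgeR found 4 of the 9 at an unadjusted p under 0.05 at 6 h and 2 at 24 h, and DESeq2 called 0 at both times. The share of all genes under that unadjusted p was not counted. The 4 were KLF4 (-0.35), CEBPB (-0.22), CEBPD (-0.20) and IRF8 (-0.07), and the 2 were GFI1 (-0.09) and CEBPA (-0.09). Without the filter on low counts edgeR called KLF4 lower at 6 h (adjusted p = 0.0084), and 182 genes over the whole table. The intervals limit the response of the better measured genes: the interval of IRF8 ran from -0.11 to -0.02 at 6 h and from -0.06 to 0.03 at 24 h, and that of GFI1 from -0.02 to 0.09 and from -0.14 to -0.03. For EGR2 they are wide, -0.61 to 0.40 at 6 h and -0.69 to 0.33 at 24 h. SPI1 was at -0.07 and -0.08 at 6 and 24 h, and CEBPE at -0.01 and 0.29. The values not given above were -0.004 for CEBPA at 6 h, and 0.02 for CEBPB, 0.03 for CEBPD and 0.19 for KLF4 at 24 h.

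With PFI-6, 3 of the 9 genes were called at each time. At 6 h, where 2.05% of all genes were called, IRF8 fell by 0.12 (adjusted p = 0.00229), CEBPD by 0.23 (adjusted p = 0.0404) and KLF4 by 0.44 (adjusted p = 0.0286). IRF8 was at 660.2, 659 and 665 CPM with PFI-6, against 709, 719 and 721 CPM with DMSO, with no overlap. Leaving out any 1 of the 6 libraries ended the KLF4 call, at -0.49 to -0.36, and leaving out any but PFI-6 replicate 1 ended the CEBPD call, at -0.25 to -0.20. With the GC trend removed CEBPD was at -0.12 (adjusted p = 0.448). SPI1 at 6 h was at -0.13 (adjusted p = 0.0873) and was not called by the main edgeR fit, but DESeq2 called it lower (adjusted p = 0.0422). So did edgeR without the filter on low counts (adjusted p = 0.00513) and with only the compared groups (adjusted p = 0.00674). CEBPA (-0.07), CEBPB (-0.08), CEBPE (-0.04), GFI1 (-0.02) and EGR2 (-0.02) were not called at 6 h. The summed myeloid markers were at 1381 to 1390 CPM with PFI-6 and 1429 to 1441 CPM with DMSO at 6 h, with 0 of 12 at 0 in both, and their part was not tested. At 24 h, with 12.4% of all genes called, KLF4 rose by 0.44 (0.22 to 0.66, adjusted p = 0.00562), with 7.60, 7.02 and 8.32 CPM against 4.52, 6.60 and 5.77 CPM with DMSO.

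SPI1 and CEBPA fell with PFI-6 at 24 h. SPI1 was at 80.2, 77.3 and 80.9 CPM, below the 89.9, 91.3 and 99.2 CPM of DMSO (-0.23, -0.32 to -0.15, adjusted p = 0.000303). CEBPA changed by -0.17 (-0.26 to -0.09, adjusted p = 0.00282). Neither held with the GC trend removed, with SPI1 at -0.03 (adjusted p = 0.718) and CEBPA at 0.04 (adjusted p = 0.66). The KLF4 call at 24 h was lost without DMSO replicate 1 (0.31, adjusted p = 0.0588). IRF8 (-0.02), GFI1 (-0.06), CEBPB (-0.05), CEBPE (0.10) and EGR2 (0.09) were not called at 24 h. Nor was CEBPD (0.06, adjusted p = 0.651), which was called higher with the GC trend removed (0.33, adjusted p = 0.00172).

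Direct comparisons at the same dose and time show where the compounds differed. The comparisons with DMSO above share their DMSO libraries, so each pair was tested on its own. MS41 against MS41N gave 5 called genes at 6 h (21.8% of all genes called) and 8 at 24 h (42.4%). MS41 against PFI-6 gave 5 at 6 h (19.5%) and 8 at 24 h (42.3%). In these 4 tests p-values were adjusted over all genes of each.

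IRF8 was lower with MS41 in all 4 direct tests, with changes of -0.64 and -0.38 against MS41N and of -0.60 and -0.37 against PFI-6 at 6 and 24 h. GFI1 changed by -0.57 and -0.34 against MS41N and by -0.52 and -0.37 against PFI-6, with the adjusted p of both genes between 1.27e-26 and 1.05e-14. EGR2 at 24 h was higher with MS41 by 1.802 against MS41N (1.31 to 2.29, adjusted p = 2.21e-08) and by 1.53 against PFI-6 (1.04 to 2.01, adjusted p = 5.7e-07). SPI1 at 24 h was higher by 0.24 (adjusted p = 7.88e-06) and 0.40 (adjusted p = 5.91e-10). CEBPB was higher by 0.35 (adjusted p = 0.000148) against MS41N and 0.42 (adjusted p = 8.26e-06) against PFI-6.

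For KLF4 at 24 h the difference of MS41 from PFI-6 was 0.20 (-0.01 to 0.42, adjusted p = 0.129), an interval that includes 0. Against MS41N KLF4 was higher at 24 h (0.45, adjusted p = 0.000574). At 6 h KLF4 was higher with MS41 than with MS41N (0.47, adjusted p = 0.00117) or PFI-6 (0.55, adjusted p = 0.000184), while its value against DMSO was 0.12. CEBPE at 24 h was higher with MS41 than with MS41N (0.74, adjusted p = 0.0417), a call lost, at 0.56 to 0.80, without replicate 1 or 3 of either compound. Against PFI-6 it was higher by 0.93 (adjusted p = 0.0104), and CEBPA by 0.18 (adjusted p = 0.000244). CEBPD was lower than with MS41N at 24 h (-0.20, adjusted p = 0.00562) but at 0.01 (adjusted p = 0.909) with the GC trend removed, and it was not called without MS41 replicate 3 (-0.15, adjusted p = 0.0686). Against PFI-6 it was lower at 6 h (-0.21, adjusted p = 0.0129) and 24 h (-0.23, adjusted p = 0.00167), the 6 h call being lost without replicate 1 of MS41 (-0.16) or of PFI-6 (-0.18). CEBPA at 6 h was lower than with MS41N (-0.25, adjusted p = 6.9e-06) and PFI-6 (-0.18, adjusted p = 0.00118). The CEBPD call against MS41N at 6 h (-0.23) was lost with the GC trend removed (-0.12, adjusted p = 0.226). At 6 h SPI1 (-0.03 and 0.04), CEBPB (0.06 and -0.09), CEBPE (0.44 and 0.475) and EGR2 (0.63 and 0.55) were not called against MS41N or PFI-6. CEBPA against MS41N at 24 h was at 0.096 (adjusted p = 0.0541) and was not called. It was called higher with the GC trend removed (0.218, adjusted p = 6.85e-07) and with the replicate block (0.096, adjusted p = 0.0398). It was also called without MS41 replicate 3 (0.132) or MS41N replicate 1 (0.115).

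The DMSO libraries of the 2 times also differed. Between the DMSO libraries of 24 h and 6 h, where 30.2% of all genes were called, 4 of the 9 were higher and 1 lower at 24 h. CEBPD was at 15.3, 14.8 and 14.2 CPM at 24 h, against 11.5, 11.9 and 11.3 CPM at 6 h (0.35, adjusted p = 6.68e-06). CEBPB (0.28, adjusted p = 0.0039), CEBPA (0.13, adjusted p = 0.00881) and IRF8 (0.08, adjusted p = 0.00542) were higher, and KLF4 was lower (-0.30, adjusted p = 0.032). SPI1 (-0.045), CEBPE (-0.23), GFI1 (0.06) and EGR2 (0.07) were not called. Calls were lost without DMSO replicate 2 (0.11) or 3 (0.10) of 6 h for CEBPA, replicate 1 of 24 h for CEBPB (0.21) and replicate 1 of 6 h for IRF8 (0.06). That of KLF4 was lost without replicate 1 (-0.27) or 2 (-0.32) of 6 h, or 1 (-0.17) or 3 (-0.32) of 24 h. The myeloid markers summed to 2433 to 2502 CPM at 24 h and 1429 to 1441 CPM at 6 h of DMSO.

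Across the 24 compound libraries the genes fell into patterns, given here as a description of libraries that share their groups and depth. IRF8 and GFI1 went together (Pearson r = 0.936 on log2 CPM), and KLF4 and EGR2 did so less closely (r = 0.739). Among genes with an average log2 CPM of at least 3, the closest to IRF8 were MTO1 (0.995), CHSY1 (0.992) and IGF2BP2 (0.986). The closest to GFI1 were MYB (0.979), MYC (0.975) and MEIS1 (0.973). SPI1 was nearest to GPX1 (0.951), PSD4 (0.921) and FES (0.904), CEBPA to MOB3A (0.903), REPIN1 (0.903) and TKT (0.897), CEBPB to SMAP2 (0.946), ADA (0.943) and FLI1 (0.943), and CEBPD to MS4A3 (0.967), HHEX (0.966) and IKBIP (0.966). The nearest genes to KLF4 were C4orf33 (0.763), KLHL2 (0.755) and RCOR3 (0.753). CEBPE and EGR2 averaged under 1 CPM and were not ranked.

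The guide libraries compare cells labelled ENL KO with cells of the control guide. Over both ENL guides 2 of the 9 genes were called, KLF4 higher and GFI1 lower, with 10.3% of all genes called. KLF4 was at 5.005 and 6.33 CPM with ENL guide 1 and 5.16 and 6.72 with ENL guide 2, against 3.55 and 3.36 CPM with the control guide. All 4 ENL guide libraries were higher (0.75, 0.41 to 1.08, adjusted p = 0.00921). GFI1 was at 183 and 152 CPM with guide 1 and 180.5 and 163 with guide 2, against 227 and 200.1 CPM with the control guide, all lower (-0.33, -0.52 to -0.14, adjusted p = 0.0335).

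For each guide alone the main edgeR fit called KLF4 and no other gene of the 9. With guide 1 it was at 0.71 (adjusted p = 0.0263, 7.48% of all genes called) and with guide 2 at 0.78 (adjusted p = 0.0241, 4.94%). GFI1 was at -0.35 (adjusted p = 0.0625) with guide 1 and -0.32 (adjusted p = 0.106) with guide 2, and its call depends on the processing. It was called lower for both guides by DESeq2 (adjusted p = 0.0148 and 0.0362), with the replicate block (adjusted p = 0.000955 and 0.0034) and without the filter on low counts (adjusted p = 6.57e-05 and 0.000508). With the GC trend removed it was called for guide 1 (adjusted p = 0.0385). The other 7 genes were not called by the main edgeR fit for either guide. For guides 1 and 2 EGR2 was at -1.90 and -0.61, CEBPD at -0.285 and -0.125, CEBPE at -0.095 and 0.24 and IRF8 at -0.08 and -0.12. SPI1 was at 0.09 and 0.08, CEBPB at -0.06 and -0.045 and CEBPA at 0.04 and 0.08. Without the filter on low counts CEBPD was called lower for guide 1 (-0.27, adjusted p = 0.0308). KLF4 over both guides missed the threshold without control replicate 2 (0.71, adjusted p = 0.0539). For guide 1 alone KLF4 missed it without control replicate 2 (0.68) or guide 1 replicate 2 (0.53), and for guide 2 alone without control replicate 2 (0.74) or guide 2 replicate 2 (0.59). GFI1 missed it without control replicate 1 (-0.24, adjusted p = 0.176), guide 1 replicate 2 (-0.27, adjusted p = 0.0643) or guide 2 replicate 2 (-0.29, adjusted p = 0.137).

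IRF8 was not called with the guides: it was at 477 and 526 CPM with guide 1 and 482 and 491 with guide 2, within the 446 and 614 CPM of the control libraries (-0.10, -0.37 to 0.17, adjusted p = 0.651). Its sign turns on the control library left out: without control replicate 1 it was called at -0.32 (adjusted p = 0.00662), and without control replicate 2 it was at 0.15 (adjusted p = 0.307). EGR2 was at 0.145 and 0.296 CPM with guide 1 and 0.402 and 0.679 CPM with guide 2, while the 2 control libraries held 1.49 and 0.133 CPM. Its value was -1.25 and its interval ran from -3.74 to 1.24. Without control replicate 2 it was called at -2.11 (adjusted p = 0.00243), and without control replicate 1 it was at 1.36 (adjusted p = 0.187), so no direction can be read from it. SPI1 (0.08), CEBPA (0.06), CEBPB (-0.05), CEBPD (-0.20) and CEBPE (0.07) were not called. The summed erythroid and megakaryocyte markers were at 23.25 to 29.6 CPM with the ENL guides and 12.55 to 15.1 CPM with the control guide, nearly all of it ITGA2B. The T and NK markers were at 46.4 to 57.4 and 34.8 to 37.6 CPM, nearly all of it NKG7. The myeloid markers were at 2859 to 3239 CPM with the ENL guides and 1889 to 2098 CPM with the control guide, with 0 of 12 at 0. Of these 12, LYZ alone ran from 375 to 1636 CPM over the guide libraries. Over both guides 9 of the 12 were called higher and 1 lower, against 5.32% and 4.98% of all genes. The part of all these markers was not tested.

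**Figure D4:**
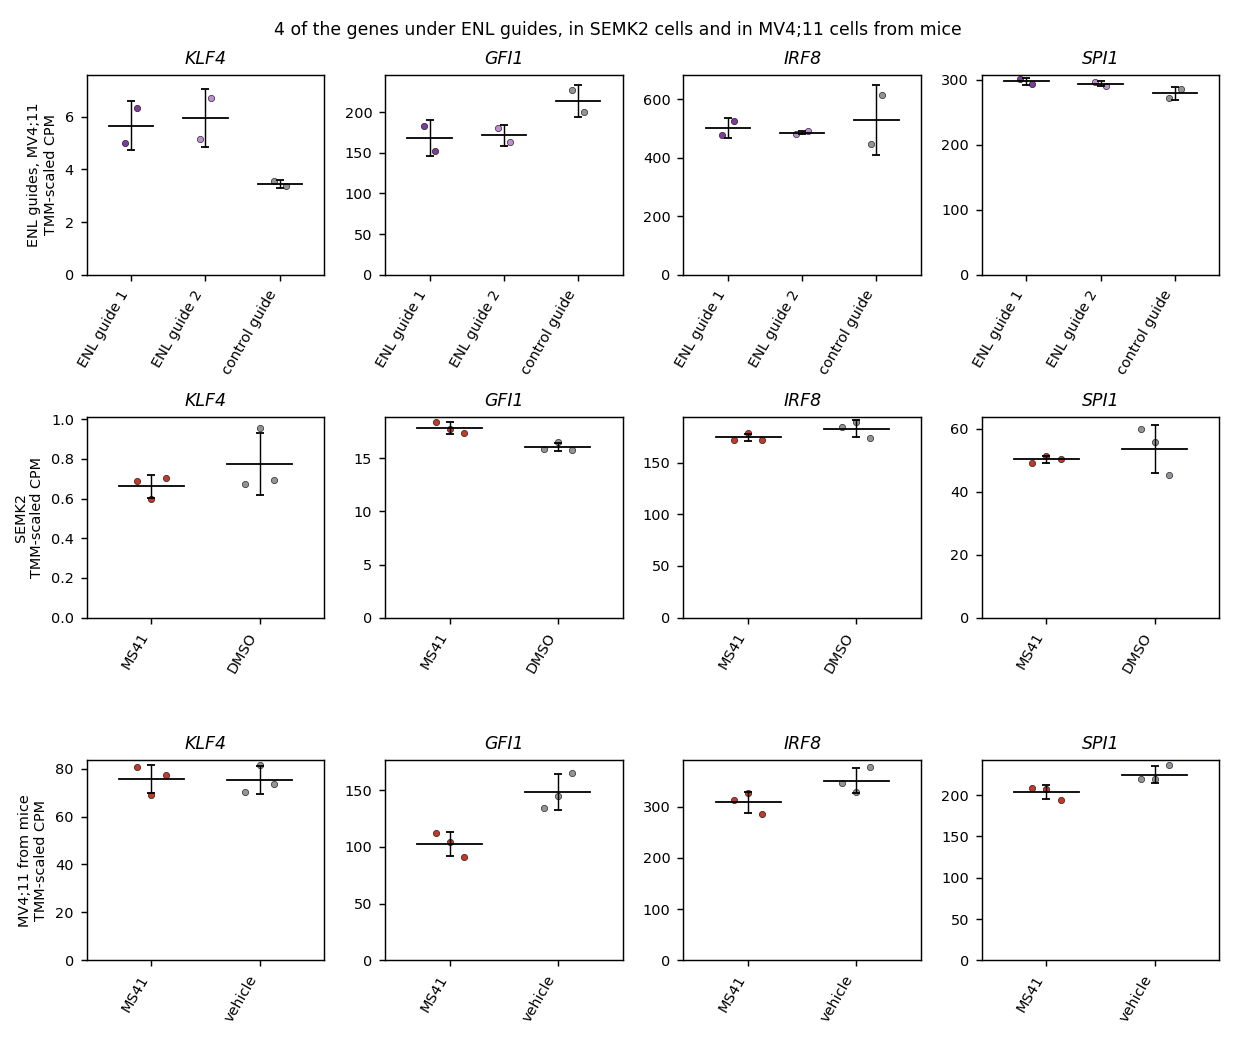
TMM-scaled CPM of KLF4, GFI1, IRF8 and SPI1 in the guide libraries of MV4;11, in SEMK2 and in MV4;11 cells from mice; points are libraries and bars the mean with SD (n = 2, 3 and 3). KLF4 lies at 5.005 to 6.72 CPM with the ENL guides and 3.36 to 3.55 CPM with the control guide.

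In SEMK2, edgeR called 0 of the 8 genes it could test, where 1.36% of all genes were called. CEBPD was removed by the filter on low counts, with 0.00501, 0 and 0.0248 CPM with MS41 and 0.218, 0.0184 and 0.0913 CPM with DMSO. Of the 8, 2 had an unadjusted p under 0.05, and the share of all genes under it was not counted. DESeq2 called 1 of the 8, CEBPB, and 763 genes over the whole table. Without the filter on low counts edgeR also called CEBPB (adjusted p = 0.00147), and 912 genes over the whole table. CEBPB was at 11.0, 11.2 and 9.68 CPM with MS41, against 15.35, 13.85 and 11.2 CPM with DMSO (-0.34, -0.57 to -0.11, adjusted p = 0.166).

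IRF8 in SEMK2 was at 172, 178 and 172 CPM with MS41 and 185, 189.5 and 174 CPM with DMSO, and its interval was -0.155 to 0.018. GFI1 was at 18.45, 17.7 and 17.4 CPM with MS41, above the 15.9, 16.5 and 15.8 CPM of DMSO, and was not called (0.15, 0.03 to 0.28, adjusted p = 0.281). The difference between the lines was not tested, since their tables were fitted apart. KLF4 was under 1 CPM in all 6 libraries (-0.22, -0.69 to 0.25). SPI1 (-0.09), CEBPA (-0.11) and CEBPE (-0.35, -1.29 to 0.59) had intervals that include 0. EGR2 was at 2.585, 2.48 and 2.745 CPM with MS41 and 2.38, 2.04 and 2.07 CPM with DMSO, without overlap and not called (0.27, -0.001 to 0.535, adjusted p = 0.389).

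DMSO replicate 3, the deepest library, decides the count. Without it 4 of the 8 were called lower, SPI1 (-0.20, adjusted p = 0.00255), CEBPA (-0.19, adjusted p = 0.00262), CEBPB (-0.45, adjusted p = 0.000637) and IRF8 (-0.10, adjusted p = 0.0248). The number of calls over all genes moved too, to 2986 in that fit from 291 with every library. Without DMSO replicate 1, which stood apart in CYBB, 0 were called and CEBPB was at -0.24 (adjusted p = 0.495).

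In MV4;11 cells from mice, edgeR called 0 of the 9 genes, with 0.0328% of all genes called. Of the 9, 4 had an unadjusted p under 0.05, and the share of all genes under it was not counted. DESeq2 called 1 of the 9, GFI1, and 69 genes over the whole table. Without the filter on low counts edgeR called GFI1 (adjusted p = 4.95e-13) and CEBPA (adjusted p = 0.0247) lower, and 184 genes over the whole table. GFI1 was at 112, 104 and 91.4 CPM with MS41, against 135, 145 and 166 CPM with vehicle. All 3 were lower and the change of -0.53 (-0.74 to -0.33) is the largest of the 9, but it missed the threshold (adjusted p = 0.171). It was called without MS41 replicate 1 (-0.67, adjusted p = 0.000669) or vehicle replicate 1 (-0.66, adjusted p = 0.000871). With the replicate number as a term, both of these fits rest on the same remaining pairs, so they are not separate results. Over all leave-outs the change ran from -0.67 to -0.37, with an edgeR adjusted p of up to 0.41.

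IRF8 was at 313.5, 326.5 and 286 CPM with MS41 and 345, 329 and 377 CPM with vehicle, with no overlap and no call (-0.18, -0.34 to -0.02, adjusted p = 0.621). CEBPA was at 80.9, 84.8 and 73.4 CPM with MS41, below the 93.9, 88.9 and 103 CPM of vehicle (-0.26, adjusted p = 0.527). KLF4 was at 80.7, 69.0 and 77.1 CPM with MS41 and 70.1, 81.7 and 73.7 CPM with vehicle (0.01, -0.17 to 0.19), and EGR2 at 1.37, 0.998 and 1.16 CPM with MS41 and 0.913, 1.27 and 1.11 CPM with vehicle (0.10). SPI1 was at 209, 208 and 194 CPM with MS41, below the 219, 219 and 236 CPM of vehicle, and was not called (-0.14, -0.28 to -0.01, adjusted p = 0.647). CEBPB (-0.045), CEBPD (-0.12) and CEBPE (0.11) had groups that overlapped. The T and NK markers summed to 16.1 to 17.7 CPM with MS41 and 18.7 to 20.45 CPM with vehicle, nearly all of it NKG7. Of them 2 and 4 of 8 were at 0, and their part was not tested. The deposited in vivo values look adjusted by replicate number, so the fit kept that number as a term and rests on 2 residual degrees of freedom. Whether the groups would also be apart in values from before such a step cannot be told.

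Genes around the factors show how far their surroundings moved; the lists were drawn up with earlier results of these data known. Their counts are set against all genes tested with MS41, of which 12.2% were called higher and 13.8% lower at 6 h and 21.4% higher and 22.9% lower at 24 h. Of 20 target genes of PU.1 and C/EBP proteins in monocytes, 11 rose and 3 fell with MS41 at 6 h, and 16 rose and 0 fell at 24 h. The median was 1.16 at 24 h, against 0.02 over all genes. CYBB, the catalytic subunit of the phagocyte oxidase, was at 81.6, 84.7 and 79.2 CPM with MS41 at 24 h, against 1.64, 1.62 and 1.44 CPM with DMSO (5.71, adjusted p = 5.34e-41). The M-CSF receptor gene CSF1R, a classic PU.1 target, was at 90.4 and 25.5 CPM on average (1.83, adjusted p = 2.93e-33). With the ENL guides 13 of the 20 were higher and 0 lower (median 0.45), where 5.32% of all genes were called higher and 4.98% lower. PFI-6 at 24 h gave 4 higher and 3 lower, with 5.57% and 6.78% of all genes. In SEMK2 edgeR called 0 of 15 tested (1.36% of all genes) and in mice 0 of 20 (0.0328%).

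Granule genes went both ways. Of 7 early granule genes, 3 rose and 3 fell with MS41 at 24 h, where 44.3% of all genes were called: CTSG, the protease cathepsin G, fell by 1.94 (28.99 against 112 CPM), PRTN3 fell by 0.52 and RNASE2 rose by 0.66. Of 10 late granule genes that C/EBP-epsilon controls, 3 could be tested and 2 rose, CHI3L1 by 1.865 (89.1 against 24.5 CPM) and CAMP by 2.73 (adjusted p = 0.00931). CAMP, and BPI, which was not called (1.06), were named after their values were seen. LTF, LCN2, MMP8, MMP9, OLFM4, CRISP3 and PGLYRP1 were too low to test there.

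Among 23 partners and antagonists of the factors, 22 could be tested, and 11 fell and 2 rose with MS41 at 6 h, and 9 fell and 3 rose at 24 h. Over all genes 26% were called at 6 h and 44.3% at 24 h, and the 12 of 22 at 24 h are near that share, so nothing is read from them. MYB, the progenitor factor, was at 396 and 440.4 CPM on average with MS41 at 6 and 24 h, against 692 and 664 CPM with DMSO (-0.81 and -0.59). ID2, an inhibitor of bHLH factors, rose by 0.92 and LMO4 by 0.665 at 24 h. With the guides 1 of them was called, MYB (-0.34, adjusted p = 0.00379), against 10.3% of all genes.

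Other monocyte factors were mixed, with 7 higher and 2 lower of 16 tested at 6 h, with 26% of all genes called, and 7 and 5 at 24 h, with 44.3%. TFEC (0.85) and IRF5 (0.495) rose and ZEB2 (-0.42) fell at 24 h. BCL6, a repressor and a further zinc-finger factor, is named here after its values were seen because it was called in 5 of the 6 comparisons for which lists were counted, with changes of 1.38 and 2.68 with MS41 at 6 and 24 h, 0.56 with PFI-6 at 24 h, 1.8 with the guides and 0.52 in SEMK2. The MS41 and PFI-6 values at 24 h share their DMSO libraries.

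Of the 10 paralogues of the 9 genes, 8 could be tested in the compound table, with 2 higher and 1 lower at each time, where 26% of all genes were called at 6 h and 44.3% at 24 h. EGR1 rose by 0.55 at 6 h and SPIB by 0.52, and CEBPG fell by 0.12. At 24 h IRF4, which like IRF8 binds beside PU.1, rose by 0.48 (29.1 against 20.8 CPM, adjusted p = 5.66e-11) and KLF6 by 0.27, while KLF2 fell by 0.90. EGR1 (0.09) and EGR3 (0.12) were not called at 24 h, where EGR2 rose by 1.62, nor was GFI1B (0.51). EGR4 and SPIC were too low to test there. In SEMK2 EGR1 (0.51, adjusted p = 1.34e-05), EGR3 (1.21) and IRF4 (0.31) rose with MS41. With the ENL guides IRF4 rose by 0.59 (adjusted p = 0.0249).

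**Figure D5:**
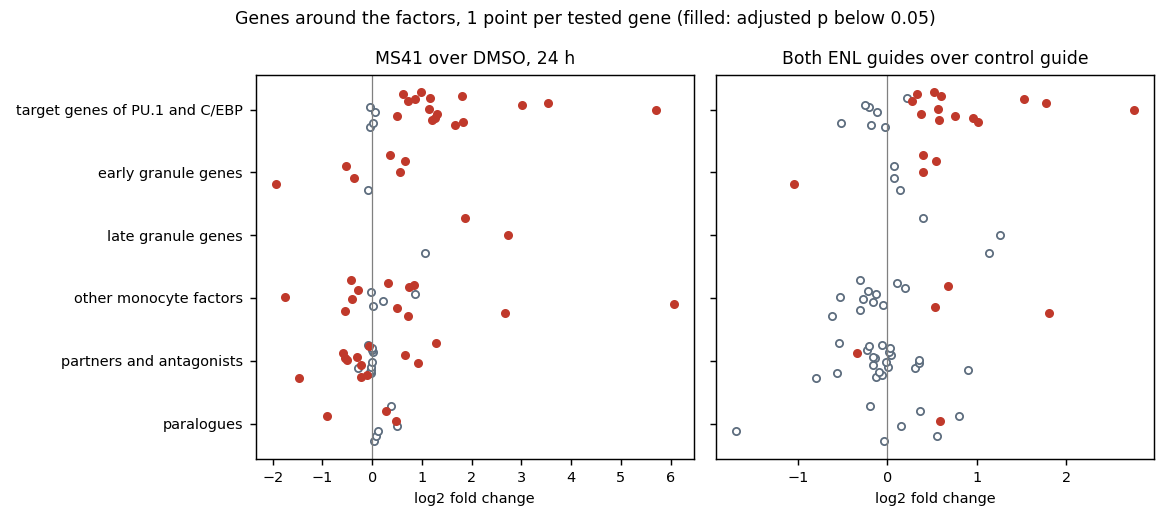
Log2 fold change of every tested gene of 6 lists, with MS41 over DMSO at 24 h on the left and with both ENL guides over the control guide on the right; filled points are called. The target genes of PU.1 and C/EBP lie mostly to the right of 0, with CYBB at 5.71 and 2.76.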

How the data were processed

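RNA-seq of 42 libraries was analysed from 4 gene count tables. The compound, guide and SEMK2 tables hold counts as the authors deposited them. The authors' deposited in vivo values are whole numbers, taken here for expected counts because they look adjusted by replicate number, a step that no source used here states. There log2 means of same-numbered pairs varied with an SD of 0.00204, against 0.02608 to 0.04236 for the 5 other matchings over 5922 genes. Per the submitters' processing notes, CASAVA 1.8, HISAT2 2.1.0, HTSeq 0.11.3 and hg38 were used. Strand setting and annotation release are not given in the sources used here.

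Each table was fitted alone with edgeR 4.0.16 (R 4.3.3, limma 3.58.1): filterByExpr, TMM scaling and the quasi-likelihood test, 1 coefficient per group, Benjamini-Hochberg adjustment over all genes tested, and calls below 0.05. Tested genes numbered 22711 in the compound table, 17984 with the guides, 21433 in SEMK2 and 21337 in vivo, with 16, 3, 4 and 2 residual degrees of freedom. The in vivo fit kept the replicate number as a block. Pairing was checked by correlating the deviations of same-numbered libraries. In vivo these were -0.99, -0.981 and -0.988, and in no comparison of the compound and SEMK2 tables did every pair exceed 0.1. Against the control guide they were 0.605 for ENL guide 1 and -0.018 for ENL guide 2. Each guide has 2 libraries, so both replicate numbers give the same value. The main guide fit had no replicate term. The scripts were tested on simulated data.

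Motifs were searched on both strands in the 200 bases before each RefSeq start. The printed start is the one nearest the start of the GENCODE transcript numbered 201. All 9 genes are named in each comparison, and from each list the called genes with the 3 largest changes at 24 h of MS41 among those with an average log2 CPM of at least 3, besides paralogues; 1 gene that this rule names is not reported here. The 9 genes and the lists were chosen with earlier results of these data known. Alternatives were RLE scaling, no filter on low counts, DESeq2 1.42.0, removal of a trend with GC content, only the compared groups, the replicate block and leaving out each library. Counting error and the number of libraries set the precision.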

Additional observations from a re-analysis of the deposited data

Results flagged for a closer look

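The effect of MS41 over DMSO in MV4;11 differed between 24 h and 6 h for 8 of the 9 genes by edgeR's interaction term, given as the 24 h log2 change minus the 6 h log2 change. Of all genes 26.4% were called in that test, 11.9% higher. The difference was 1.09 for EGR2 (adjusted p = 0.0131), 0.533 for CEBPB (adjusted p = 0.00012), 0.525 for KLF4 (adjusted p = 0.00772) and 0.32 for IRF8 (adjusted p = 1.69e-11). It was 0.263 for CEBPD (adjusted p = 0.0178), 0.258 for SPI1 (adjusted p = 0.000828), 0.256 for CEBPA (adjusted p = 0.000504) and 0.108 for GFI1 (adjusted p = 0.0308). Of 12 fits that each left out 1 library, the call was lost in 5 for GFI1, 4 for CEBPD and 1 for EGR2.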

How the results depend on the processing

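Of the values of single genes under the alternatives, 1715 kept their side of the threshold, 46 gained a call, 52 lost it and 3 changed sign. A change of sign was counted only where the gene was called in either fit. Values that changed sign without a call in either fit are among the 1715. All 3 came with the GC trend removed: CEBPD with MS41 at 24 h (0.169), CEBPA with PFI-6 at 24 h (0.043) and CEBPD in MS41 against MS41N at 24 h (0.012). Of the counts of called genes, 171 stayed within 1.5 times and 32 did not. Without the filter on low counts the count was 1 for MS41N at 6 h, 3 for guide 1, and 2 each for guide 2, SEMK2 and in vivo. Over all genes these fits called 182, 2304, 1835, 912 and 184 in that order. The main fits called 73, 1346, 888, 291 and 7. DESeq2 called 2 for each guide (KLF4 and GFI1) and 1 each in SEMK2 and in vivo, and the GC trend removed gave 2 for guide 1. Over all genes DESeq2 called 1731 for guide 1, 1339 for guide 2, 763 in SEMK2 and 69 in vivo. With the GC trend removed 1273 genes were called for guide 1. With the replicate block the count was 2 for each guide (KLF4 and GFI1) and 1 in SEMK2 (CEBPB). Over all genes 2578 were called with it for guide 1, 1932 for guide 2 and 662 in SEMK2, against 1346, 888 and 291. The labels do not say that these numbers pair samples. Deviations of same-numbered libraries correlated with those of the control guide for guide 1 (0.605) and not for guide 2 (-0.018). Without the block the in vivo count was 0, with 523 genes called against 7. Leaving out 1 library gave 1 to 2 called genes for PFI-6 at 6 h, 3 to 5 for DMSO over time, 1 to 2 for both guides, 0 to 2 for each guide, 0 to 4 in SEMK2 and 0 to 1 in vivo. Calls over all genes moved too, such as to 126 from 466 for PFI-6 at 6 h without DMSO replicate 2. In SEMK2 they moved to 2986 from 291 without DMSO replicate 3. The cause of these shifts was not tested. EGR2 and CEBPE, with few reads, have the widest intervals.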
